A study of Mus musculus with 4 samples.

Results

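Mitochondria-rich nuclei were defined as barcodes that the authors had called as cells and in which at least 2% of read pairs mapped to mitochondrial DNA. By this rule 515 of 4086 called nuclei were members. They came from a single-cell ATAC experiment on the medial (MEC) and lateral (LEC) parts of the entorhinal cortex, taken from both hemispheres of 2 C57Bl6 wild-type mice on postnatal day 56, microdissected and flash-frozen. Each region has 2 replicate libraries, called MEC-1, MEC-2, LEC-1 and LEC-2 here after their replicate numbers, and values listed without names are in this order. Which mouse gave which library is not stated, so differences between libraries may be technical. The p-values compare libraries, and with so few they reflect mainly whether the libraries agree in direction or the regions separate. The study concerned which excitatory cell types the 2 areas share. The comparison described here is made within each library, between the members and the 3127 called nuclei with a mitochondrial share below 1%, referred to as other nuclei. The 444 called nuclei in between belong to neither class.

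ATAC sequencing uses the Tn5 transposase to cut DNA where chromatin is open. Mitochondrial DNA carries no nucleosomes and is cut readily, so mitochondria that remain with a nucleus yield many fragments, and their share of reads is widely used as a measure of organelle carry-over. Mitochondria also differ in number between cell types, and brain tissue is rich in them. Open chromatin of the nuclear genome is found at transcription start sites (TSSs), at promoters, which launch transcription, and at enhancers, which act on genes from a distance. DNase-sensitive regions are stretches of chromatin that DNase can digest, and peaks are regions where the fragments of a data set pile up. The deposited tables give fragments per barcode in these classes and no gene, so the cell type of a nucleus could not be examined here.

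The libraries held between 114232167 and 146431311 read pairs. Called nuclei of different libraries shared 8 barcodes over the 6 pairs of libraries, and none of these was mitochondria-rich in both libraries. In 4 of these 8 cases the barcode was mitochondria-rich in 1 of the libraries. Members made up 12.6% of called nuclei in MEC and in LEC, so 8 shared barcodes are too few to read anything from these counts.

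In number, the members were spread evenly over the libraries. There were 124 of 1048 called nuclei in MEC-1 (11.8%, 95% Wilson interval 10.01 to 13.9%), and 129 of 962 in MEC-2 (13.4%, 11.4 to 15.7%). LEC-1 had 131 of 1081 (12.1%, 10.3 to 14.2%) and LEC-2 had 131 of 995 (13.2%, 11.2 to 15.4%). These intervals cover counting error only. As a share of called nuclei the members came to 12.6% ± 1.12 in MEC and 12.6% ± 0.741 in LEC (SD, n = 2 libraries for this and all following group values), and the libraries of the regions overlapped (two-sided exact permutation p = 1).

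How far the members exceeded the threshold differed more between the regions. These mitochondrial shares are values that the rule used and are given as a description. The median share of the members was 8.16% in MEC-1, 7.34% in MEC-2, 3.60% in LEC-1 and 3.73% in LEC-2, against 0.221%, 0.215%, 0.328% and 0.352% in the other nuclei. Members of MEC thus had the higher medians, with no overlap between the regions, while the other nuclei of MEC had the lower ones. The highest share of any member was 50.9%, 53.5%, 51.96% and 36.7%. A share of 10% or more was found in 54 and 58 nuclei of the MEC libraries and in 19 and 17 nuclei of the LEC libraries. As shares of called nuclei these were 5.59% ± 0.620 and 1.73% ± 0.0347, a 3.23-fold difference. Members held 78.6% and 80.6% of all mitochondrial pairs of called nuclei in MEC-1 and MEC-2, but 41.6% and 42.5% in LEC-1 and LEC-2. Their part of the usable fragments, the unique nuclear fragments kept by the authors, was between 5.90% and 7.55%.

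Counted in pairs, the median member had 3409, 4598, 1229 and 1226 mitochondrial pairs. The other nuclei had between 179.5 and 217. The rule divides mitochondrial pairs by total pairs, so it favours both more mitochondrial and fewer nuclear pairs in members, and these counts are a description. Nuclei with a share of 10% or more had 11259, 12259.5, 3484 and 2737 mitochondrial pairs, and those from 2 to 5% had 1289, 1789, 949 and 898.

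**Figure D1:**
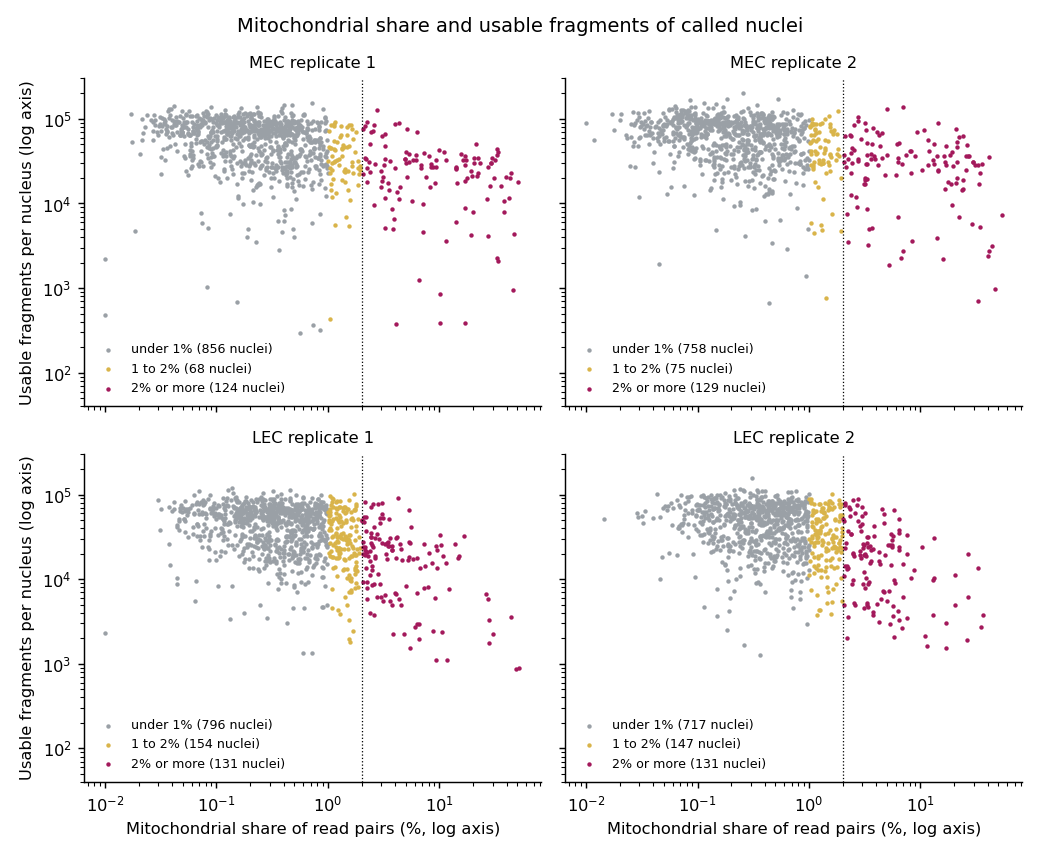
Each point is a called nucleus, placed by its mitochondrial share of read pairs in percent (log axis, nuclei with the smallest shares drawn at the left edge) and its usable fragments (log axis), with 1 panel per library. The dotted line marks the 2% threshold. The MEC panels hold more nuclei at 10% or more (54 and 58) than the LEC panels (19 and 17), and in the LEC panels these have fewer fragments.

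Members had fewer usable fragments than other nuclei in 4 of 4 libraries. The median was 26365.5 against 66621 in MEC-1 and 30821 against 68377 in MEC-2. LEC had the lower medians, with 18860 against 50713.5 in LEC-1 and 18944 against 52443 in LEC-2. The members' medians were 2.37-fold lower in MEC and 2.73-fold lower in LEC, and on the log2 scale the difference was -1.35 ± 0.142 (SD, n = 4 libraries). The total in the rule contains these fragments, so the difference is given without a test, as are those in read pairs and in distinct fragments. The single members ranged widely, from 378 to 125853 usable fragments in MEC-1 and from 1521 to 89575 in LEC-2. Between 25.6% and 39.7% of the members of a library lay below the 5th percentile of its other nuclei. Under 5000 fragments there were 14, 14, 20 and 27 members, which was 11.3%, 10.9%, 15.3% and 20.6% of them, against 1.06% to 1.64% of other nuclei.

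Members also had fewer read pairs other than mitochondrial ones, by 1.957-fold in MEC and 2.504-fold in LEC. A larger part of them repeated fragments already seen. The duplicate share, duplicates over duplicates plus usable pairs, was 32.1% in members against 27.6% in other nuclei of MEC-1 and 32.7% against 27.9% in MEC-2. LEC-1 had 23.9% against 19.6% and LEC-2 had 24.8% against 20.5%, and the difference over the 4 libraries was 4.47 ± 0.239 percentage points (two-sided exact sign-flip permutation p = 0.125). With 4 libraries this is the smallest p the test can give, so no comparison of members with other nuclei could pass 0.05. Adjusted by Benjamini-Hochberg over the 11 quantities computed, p stayed at 0.125, and each quantity had the same direction in 4 of 4 libraries. Usable fragments, read pairs and distinct fragments are among the 11, but the rule favours their direction, so they count as description only. Estimated from the duplicates, the distinct fragments that a nucleus had to offer were 46642 and 53032 in members of the MEC libraries, against 136503 and 139364 in other nuclei. In the LEC libraries they were 43528 and 43818 against 146731 and 147659. Members thus had 3.06-fold lower estimated complexity (log2 difference -1.61 ± 0.174). With the other nuclei weighted to the members' distribution of usable fragments it was 1.18-fold lower, and at equal read pairs 1.27-fold lower.

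The fragments that members did yield lay more often in open chromatin. At TSSs the median share was 28.6% in members against 18.4% in other nuclei of MEC-1 and 27.6% against 18.4% in MEC-2. LEC-1 had 24.1% against 16.6%, and LEC-2 had 24.9% against 16.6%. Members exceeded other nuclei by 8.80 ± 1.13 percentage points (SD, n = 4 libraries, exact permutation p = 0.125). Between 86.0% and 93.9% of the members of a library lay above the median of its other nuclei, and between 32.8% and 44.4% lay above their 95th percentile. The 2 classes therefore overlapped nucleus by nucleus while their medians stood apart in each library.

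Promoters showed the same order. Members had 23.7% and 22.4% of their fragments there in the MEC libraries, against 12.7% and 12.8% in other nuclei, and 18.9% and 19.3% in the LEC libraries, against 10.8% and 10.7%. The difference was 9.31 ± 1.28 percentage points. DNase-sensitive regions took 48.5% and 47.4% in members of MEC against 36.0% and 36.1%, and 41.5% and 42.3% in members of LEC against 33.3% and 33.2%, a difference of 10.3 ± 2.01 percentage points. In peaks lay 42.7% and 42.6% of members' fragments in MEC against 33.6% and 34.5%, and 29.7% and 32.3% in LEC against 24.1% and 24.4%, a difference of 7.64 ± 1.47 percentage points. Members lay higher in 4 of 4 libraries for each of these classes (exact permutation p = 0.125 each).

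Enhancers differed least among these classes. Their share was 27.9% in members against 23.2% in MEC-1, 26.9% against 23.3% in MEC-2, 25.2% against 22.2% in LEC-1 and 24.7% against 22.1% in LEC-2. The difference of 3.49 ± 0.948 percentage points was the smallest of those at TSSs, promoters, enhancers, DNase-sensitive regions and peaks. In nuclei with 5000 to 10000 usable fragments the enhancer share of members was higher in both MEC libraries, by 2.00 and 1.25 percentage points, but in LEC-1 and LEC-2 the difference was -0.152 and -1.06. A library held as few as 9 members and 7 other nuclei at that depth. Blacklisted regions, which gather artefactual signal, took 0.385%, 0.357%, 0.2504% and 0.252% of members' fragments against 0.286%, 0.284%, 0.219% and 0.222%. The on-target class, which the headers do not define, took 64.9% and 63.4% in members of MEC against 50.6% and 50.8%, and 57.1% and 57.6% in members of LEC against 47.97% and 47.8%.

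**Figure D2:**
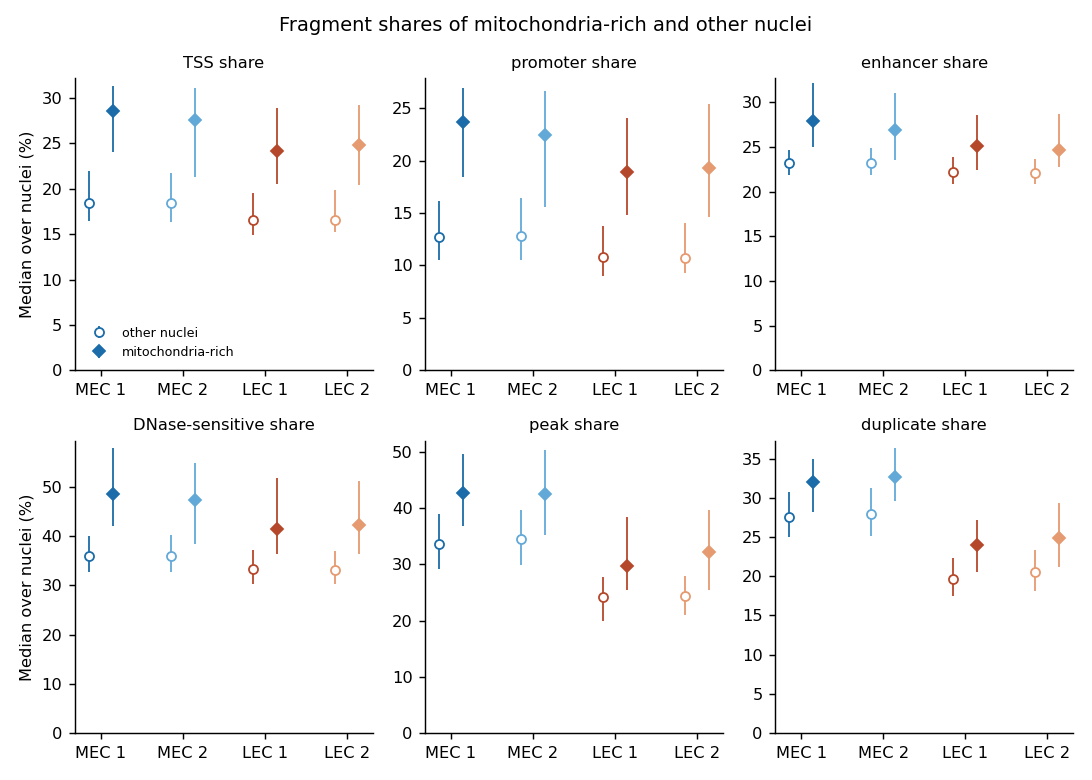
Points are medians over nuclei in percent, bars the interquartile range over nuclei, open circles other nuclei and filled diamonds mitochondria-rich nuclei, for 6 shares in each of the 4 libraries. In each panel the diamond stands above the circle in 4 of 4 libraries, for TSSs by 7.54 to 10.2 percentage points.

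Over all read pairs other than mitochondrial, duplicates and low-quality pairs included, the TSS difference was 3.17 percentage points, that of promoters 4.35, of DNase-sensitive regions 2.996 and of peaks 2.32, with members higher in 4 of 4 libraries. For enhancers it was 0.269 percentage points with members higher in 3 of 4 libraries (exact permutation p = 0.25). Members carry more duplicates and more low-quality pairs in that denominator, which lowers these values by construction.

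Because promoters differed more than enhancers, members had fewer enhancer fragments for each promoter fragment. The median ratio in members was 1.22, 1.27, 1.30 and 1.29. In other nuclei it was 1.83, 1.82, 2.06 and 2.06. It was 1.53-fold lower in members (log2 difference -0.61 ± 0.0693, exact permutation p = 0.125). The members of the regions lay closer to each other, at 1.24 ± 0.0369 in MEC and 1.30 ± 0.00758 in LEC, than the other nuclei did, at 1.82 ± 0.00647 and 2.06 ± 0.00308. Below a ratio of 1.6, a boundary taken from an earlier analysis of these data, lay 87.1%, 79.1%, 77.1% and 81.7% of members, against 31.5%, 31.3%, 22.2% and 23.6% of other nuclei. Seen from the other side, members made up 25.8% ± 0.656 of the low-ratio called nuclei in MEC and 30.03% ± 1.78 in LEC, but 3.64% ± 1.51 and 3.89% ± 0.307 of those at 1.6 or more.

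Low-ratio nuclei had fewer fragments and larger TSS shares in both classes, with TSS medians of 24.5% to 24.7% in low-ratio and 15.8% to 17.1% in high-ratio other nuclei. The classes were therefore also compared within each range of the ratio. This did not make the ratio equal, which stayed 1.10-fold lower in members below 1.6 and 1.09-fold lower from 1.6 on. Below 1.6, members had 29.3% of fragments at TSSs against 24.5% in MEC-1 and 28.98% against 24.7% in MEC-2. In the LEC libraries the values were 26.5% against 24.6% and 25.9% against 24.7%. The difference was 4.55 ± 0.344 percentage points in MEC and 1.62 ± 0.507 in LEC. At 1.6 or more, where a library held between 16 and 30 members, it was 1.12 ± 0.437 and 1.19 ± 0.826. The enhancer difference below 1.6 was 3.53 ± 0.167 percentage points in MEC and 0.645 ± 0.302 in LEC. Each of these differences in TSS and enhancer shares had the same direction in 4 of 4 libraries (exact permutation p = 0.125 over the libraries in each range). The duplicate difference was 0.908 percentage points below 1.6 and 0.935 from 1.6 on, against 4.47 over nuclei of any ratio. Usable fragments were 1.36-fold lower in members below 1.6 and 1.24-fold lower from 1.6 on. The blacklist share below 1.6 was lower in members in 3 of 4 libraries, with a difference of -0.0263 ± 0.0376 percentage points (exact permutation p = 0.375).

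The TSS share went with the number of fragments, so the classes were set side by side at like depth. In nuclei with 20000 to 40000 usable fragments, where a library held at least 34 members, members had 30.3% at TSSs against 24.6% in MEC-1 and 29.8% against 25.3% in MEC-2. In LEC-1 they had 24.3% against 19.9% and in LEC-2 they had 24.9% against 20.96%. Members lay higher in 4 of 4 libraries in this stratum and in those of 5000 to 10000, 10000 to 20000 and 40000 to 80000 fragments, by between 1.25 and 6.11 percentage points. From 5000 to 10000 fragments a library held as few as 9 members and 7 other nuclei. From 10000 to 20000 and from 40000 to 80000 it held at least 16 and at least 15 members. The enhancer to promoter ratio was lower in members in 4 of 4 libraries in each of these 4 strata. With the other nuclei weighted to the members' distribution of usable fragments, the TSS difference was 5.58 ± 1.22 percentage points, 4.36 to 7.17 percentage points remained at promoters, and the ratio was 1.22-fold lower in members. Each had the same direction in 4 of 4 libraries (exact permutation p = 0.125). The unweighted TSS difference was more than 1.5 times the weighted one.

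At both ends of the depth range few nuclei were left. From 80000 fragments the libraries held 6, 7, 3 and 2 members, whose TSS shares were 18.3%, 16.4%, 14.8% and 15.2% against 16.3%, 16.3%, 14.6% and 14.8% in other nuclei. Their enhancer to promoter ratio was higher in 2 libraries and lower in the other two. Between 1000 and 5000 fragments the classes stood far apart. Members there, 9, 12, 18 and 27 in number, had TSS shares of 29.3%, 31.9%, 30.8% and 29.0%, against 15.8%, 22.2%, 15.2% and 15.9% in the 9, 7, 13 and 8 other nuclei. Their duplicate shares were 32.7%, 34.3%, 25.8% and 27.2% against 8.70%, 9.80%, 4.50% and 3.66%. At this depth the other nuclei thus had few duplicates, while the members lay slightly above the duplicate shares of their class as a whole.

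**Figure D3:**
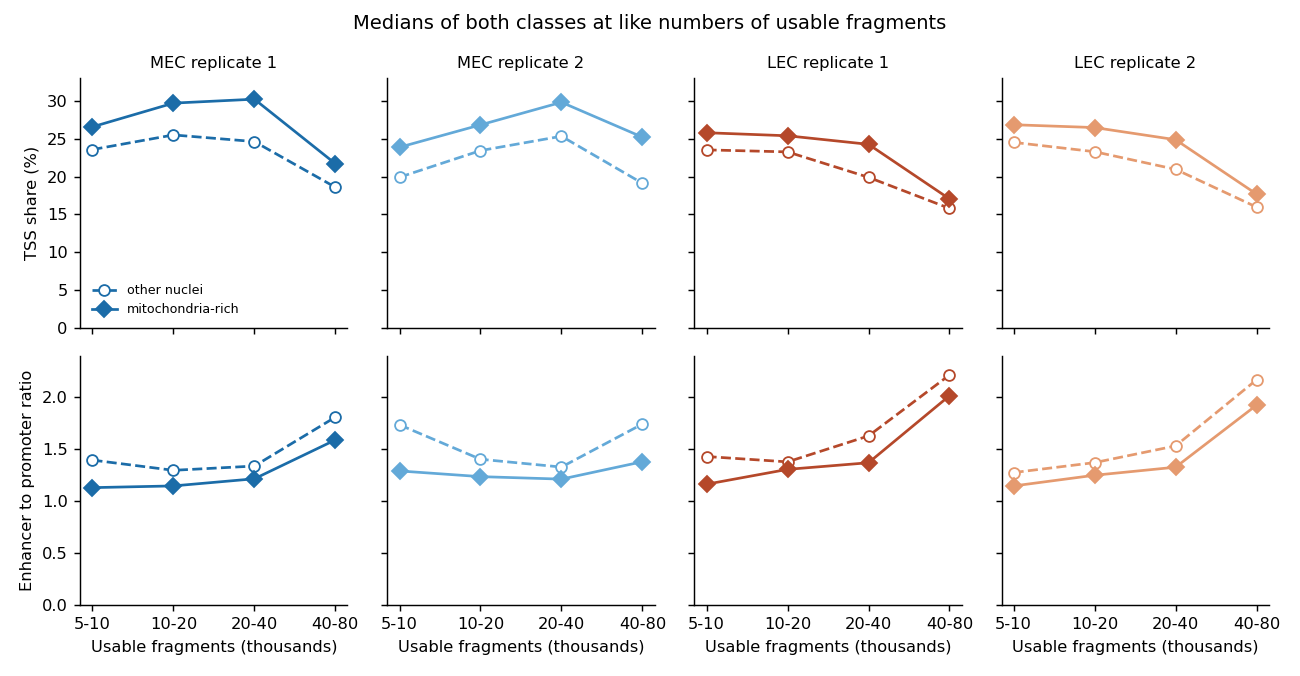
Medians over nuclei of the TSS share in percent (upper row) and of the enhancer to promoter ratio (lower row) in 4 strata of usable fragments, with 1 column per library. Filled diamonds are mitochondria-rich nuclei and open circles other nuclei. The diamonds lie above the circles in the upper row and below them in the lower row in each stratum drawn.

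Among the members, the median TSS share rose with the mitochondrial share in each library. In the MEC libraries it did not rise from nuclei at 1 to 2% (24.5% and 23.1%) to the lowest band of members. In the LEC libraries it did (from 19.99% and 19.1%). From 2 to 5% the TSS share was 24.5%, 21.5%, 23.2% and 24.6% in the 4 libraries (44, 51, 85 and 83 nuclei). From 5 to 10% it was 29.3%, 28.1%, 26.1% and 24.9% (26, 20, 27 and 31 nuclei). At 10% or more it was 30.3%, 29.98%, 30.2% and 29.0% (54, 58, 19 and 17 nuclei). In this highest band the MEC and LEC libraries overlapped, whereas in nuclei below 1% the MEC values were the higher ones. The enhancer to promoter ratio of the highest band was 1.18 and 1.20 in MEC and 1.11 and 1.16 in LEC, below that of the 2 to 5% band in each library. These bands are parts of classes chosen by the same share, and their medians are given without a test.

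Depth followed the bands differently in the regions. In the LEC libraries median fragments were 22276 and 19780 from 2 to 5%, and 6685 and 4925 at 10% or more. In the MEC libraries they were 28830 and 33758 from 2 to 5% and still 21273 and 28581.5 at 10% or more. Across members, the rank correlation of mitochondrial share and usable fragments was -0.273 and -0.227 in the MEC libraries (124 and 129 nuclei) and -0.405 and -0.364 in the LEC libraries (131 nuclei each). Both measures share the depth of a nucleus, and no p is given for them. The duplicate share had no common direction over the bands, at 32.1%, 32.03%, 23.9% and 24.1% in the lowest and 31.8%, 33.3%, 23.2% and 26.2% in the highest.

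**Figure D4:**
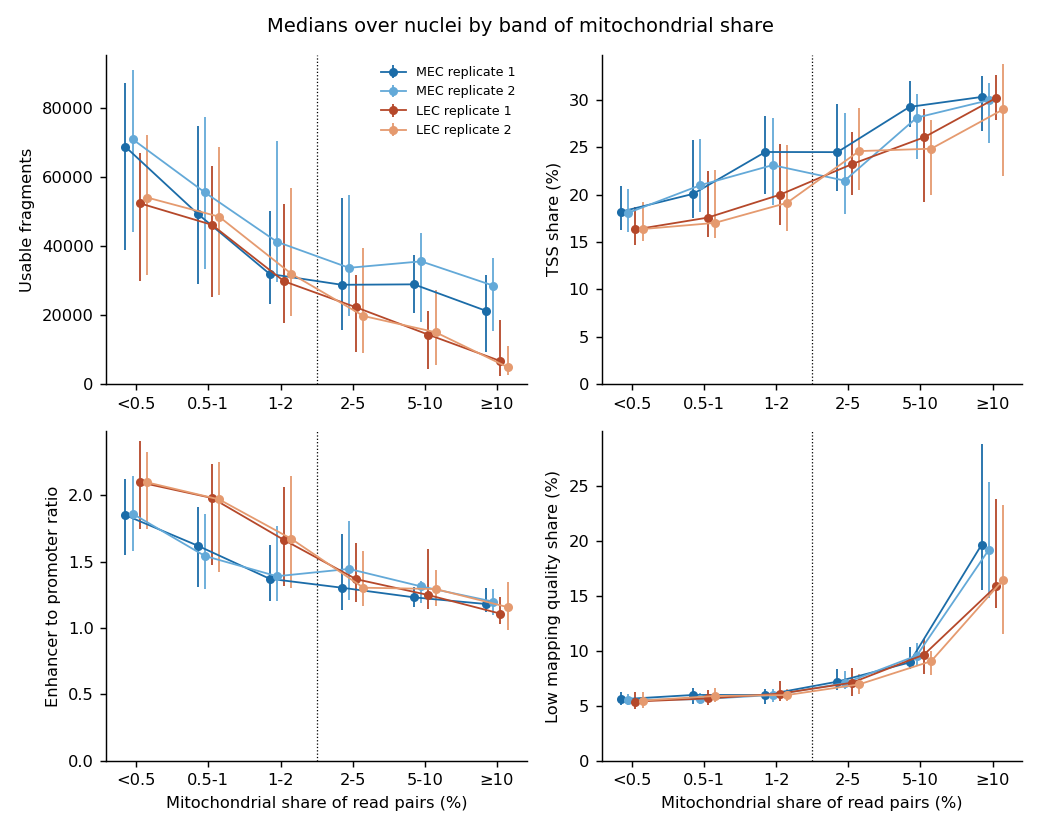
Medians over nuclei, with bars for the interquartile range, of usable fragments, TSS share, enhancer to promoter ratio and low mapping quality share in 6 bands of the mitochondrial share in percent, with 1 line per library. The dotted line marks 2%. At 10% or more the TSS medians of the 4 libraries lie between 29.0% and 30.3%, while the usable fragments lie between 4925 and 28581.5.

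Read pairs of low mapping quality, which the aligner could not place with certainty, went closely with the mitochondrial share. Across members, the rank correlation of these 2 shares was 0.914, 0.930, 0.697 and 0.666, over nuclei that share a library and its depth. Over read pairs other than mitochondrial, their share was 10.7% and 10.8% in members of MEC against 5.62% and 5.55% in other nuclei. In LEC it was 8.03% and 7.70% against 5.53% and 5.62%. At a mitochondrial share of 10% or more it was 19.7%, 19.2%, 15.9% and 16.5%. Above the rate of the other nuclei, members had 49.7, 49.4, 49.0 and 38.1 low-quality pairs for each 100 mitochondrial pairs. Uncalled barcodes with at least 1000 read pairs, at least 10% of them mitochondrial, had 49.7, 49.7, 49.1 and 49.1 by the same count. They are other barcodes of the same libraries, chosen by the same share and set against the same rate of the other nuclei. Pooled over members, the number was close to that of these barcodes in 3 of 4 libraries and lower in LEC-2. It varied over the bands of the mitochondrial share. From 2 to 5% it was 66.7, 51.7, 46.7 and 30.3, from 5 to 10% it was 46.3, 51.7, 45.1 and 41.6, and at 10% or more it was 48.4, 48.9, 54.4 and 46.4. Unmapped pairs differed little, at 1.23%, 1.15%, 1.01% and 0.991% in members against 1.05%, 1.03%, 0.906% and 0.915%, and chimeric pairs less, at 0.743% to 0.774% in members against 0.718% to 0.738%.

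The contrast between members and other nuclei was larger in MEC, in percentage points, for each of the 6 annotated classes. The levels are also higher in MEC, so a ratio can differ: peak shares were 1.376 times as high in MEC as in LEC among members and 1.405 times among other nuclei, and as a ratio the peak contrast was thus the smaller one in MEC. Whether peaks were called per sample or pooled is not given, so peak levels of the regions may rest on different sets of peaks. At TSSs the contrast was 9.68 ± 0.681 percentage points in MEC and 7.92 ± 0.537 in LEC, at promoters 10.3 ± 0.933 and 8.32 ± 0.319, and at enhancers 4.19 ± 0.791 and 2.78 ± 0.252. At DNase-sensitive regions it was 11.95 ± 0.850 and 8.63 ± 0.641, at peaks 8.56 ± 0.712 and 6.72 ± 1.61, and at blacklisted regions 0.0855 ± 0.0187 and 0.0305 ± 0.000927. In usable fragments and in the ratio the contrast was the smaller one in MEC, with log2 differences of -1.24 ± 0.133 against -1.45 ± 0.0297 and of -0.55 ± 0.0480 against -0.66 ± 0.0106. For each of the 11 quantities the libraries of the regions did not overlap, and the exact permutation test of the difference between regions gave p = 0.333, the smallest possible, with an adjusted p of 0.333. The contrasts in usable fragments, read pairs and distinct fragments, which are among the 11, remain a description because of the total in the rule. Members of MEC had higher mitochondrial shares than those of LEC, so the contrasts do not compare nuclei of like share. With members limited to shares of 10% or more, the TSS contrast was 11.7 percentage points in MEC and 13.1 in LEC, and the difference between the regions thus took the other sign. It did so too over all read pairs other than mitochondrial, with a TSS contrast of 2.66 percentage points in MEC and 3.69 in LEC.

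The threshold of 2% cut through a continuous range. Just below it, from 1.8 to 2%, lay 7, 5, 7 and 21 nuclei, with median TSS shares of 27.9%, 28.3%, 23.6% and 18.4%. Just above it, up to 2.2%, lay 5, 4, 15 and 10 nuclei, with 26.3%, 23.6%, 20.7% and 20.02%. Nuclei between the classes, from 1 to 2%, had TSS shares of 24.5%, 23.1%, 19.99% and 19.1% and usable fragments of 31976, 41308, 29843 and 32021, between the medians of the 2 classes in each library.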

How the data were processed

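The deposited tables hold, per the file headers, counts of read pairs per barcode by mapping class and counts of usable fragments by region class, plus, with unit other, the authors' 0 or 1 call of a cell. The labels refer to the 10X protocol, and the submitters' processing notes name mm10 and GRCm38. For the aligner, the cell caller, the peak caller (per sample or pooled) and the treatment of doublets the entry is "not given in the sources used here". Doublets were not searched for, because counts are per barcode and not per locus. The row without a barcode (1.93% to 1.98% of read pairs) was left out.

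Medians over nuclei were taken per library (Python 3.11.15, numpy 2.4.6, pandas 2.3.3, scipy 1.17.1) and compared over libraries, not nuclei. Within-library differences were tested by sign flips (16 assignments) and differences between regions by permutation (6 assignments). Complexity solved u = X(1 - exp(-n/X)) for X, with u usable and n usable plus duplicate pairs. Depth weighting used bins of 0.25 on the log10 scale. The weighting was tested on simulated shares that fell in a straight line with the log10 number of fragments, alike in both classes. With a true difference of 5 percentage points, the weighted one lay between 4.92 and 5.31 over the 4 libraries. The measured TSS shares of other nuclei did not follow such a line, so the test covers that simple case only.

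Every region class is reported, and no gene is. The members, classes and tests were chosen with earlier results of these data known. The on-target and low mapping quality shares, the 10% band as an alternative and the ranges of the ratio were added after the data had been seen.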

Additional observations from a re-analysis of the deposited data

Results flagged for a closer look

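Barcodes outside the authors' cell call that had at least 5000 usable fragments and a mitochondrial share of 2% or more enter no comparison above. There were 10 of them in MEC-1 and 15 in MEC-2, and 14 in LEC-1 and 9 in LEC-2, which was between 4.74% and 10.7% of the uncalled barcodes of that depth. Their median TSS shares were 13.6%, 13.7%, 11.9% and 14.2%, below those of the other called nuclei, and their enhancer to promoter ratios 2.46, 2.29, 2.24 and 2.17, above them. In both respects they lay on the opposite side of the other nuclei from the called mitochondria-rich nuclei. Their median peak shares, 13.8%, 15.6%, 9.48% and 12.1%, were also below those of the other called nuclei. How the cell call was made is not given, so what it adds to these differences cannot be told apart from the mitochondrial share. Uncalled barcodes of like depth with a lower mitochondrial share were not set beside them, and the differences were not tested.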

How the results depend on the processing

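Of 569 alternative values, 528 kept their direction. None could pass 0.05, so keeping a side of the threshold says nothing about stability. The values between members and other nuclei include those with 1 library left out. These could not turn, because each quantity had the same direction in 4 of 4 libraries. The values also include 19 of usable fragments, 19 of read pairs and 20 of distinct fragments, whose direction the rule favours. The count below is thus not one of values that were all free to turn. Between members and other nuclei, 264 of 266 values kept their direction. The exceptions were the blacklist share below a ratio of 1.6 (-0.0263 percentage points) and read pairs other than mitochondrial at equal usable fragments (log2 0.12). The number of members, MEC minus LEC, turned from -4.5 to 20 at a threshold of 3%, 32 at 5%, 38 at 10%, 2 with Wilson bounds and 5 with at least 5000 fragments. Their share turned from -0.0213 to 2.25, 3.33, 3.86, 0.590 and 0.765 percentage points, and leaving out 1 library at a time gave -0.810 to 0.767, above 0 when MEC-1 (0.767) or LEC-2 (0.502) was dropped.

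For the difference of the contrast between regions, the alternatives include values with 1 library left out and with the replicate block described below. Those could not turn, because the libraries of the regions did not overlap. The difference turned in 27 of 279 alternatives. Over all read pairs other than mitochondrial it was -1.03 for TSSs, -0.708 for promoters, -0.328 for enhancers, -0.663 for DNase-sensitive regions, -1.55 for peaks, -0.860 for duplicates and -1.43 on target. With members at 10% or more it was -1.33, -2.20, -2.57, -4.01 and -0.643 for TSSs, promoters, DNase-sensitive regions, peaks and on-target fragments. At a ratio of 1.6 or more it was -0.0677, -0.0845, -0.594, -0.515 and -0.657 for TSSs, promoters, enhancers, DNase-sensitive regions and on-target fragments, and on the log2 scale -0.17, -0.19 and -0.12 for usable fragments, read pairs and complexity. Below 1.6 it was -0.048 (log2) for the ratio. For peaks it was -0.125 and -0.207 at thresholds of 3% and 5% and -0.0392 as a mean over nuclei. The duplicate share gave -0.365 as a mean and -0.457 at equal usable fragments. At equal read pairs, usable fragments gave -0.14 (log2). The cause was not tested.

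No label says that replicate numbers pair the libraries. With 2 libraries per region, a replicate block leaves each difference between the regions at its main value by construction. No direction could therefore change. For the TSS contrast the difference was 1.76 percentage points (2.62 and 0.899 in the 2 pairs, exact permutation p = 0.5, the smallest possible). Fragments and read pairs were not weighted on themselves, and counts and ratios have no other denominator.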
